A study of Mus musculus with 20 samples.

Results

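Liver RNA was examined for 9 genes through which hepatocytes sense foreign compounds and bile acids, chosen by their symbols from the 55421 genes of the count table. They were the pregnane X receptor PXR (Nr1i2), the constitutive androstane receptor CAR (Nr1i3), the farnesoid X receptor FXR (Nr1h4), the liver X receptor LXR alpha (Nr1h3), the small heterodimer partner SHP (Nr0b2), the retinoid X receptors Rxra and Rxrb, the aryl hydrocarbon receptor Ahr and the cytochrome P450 oxidoreductase Por. All 9 were among the 22867 genes that reached 10 counts in total and were tested. The mice were wildtype C57BL/6, labelled female, and received an AAV8 vector at 6 months of age. The vector carried Cas9 of Staphylococcus aureus under the Tbg promoter, which is active in hepatocytes, and a U6-driven guide RNA against Hira, the chaperone that deposits histone H3.3 (HIRA livers), or against Rosa26, a neutral locus (control livers). Livers were taken 3 weeks or 6 months after injection, with 5 mice in each of the 4 groups, so the controls carried vector, Cas9 and a cutting guide as well. The promoter directs Cas9 to hepatocytes, while the RNA came from whole liver, and in such bulk samples fewer cells of a type and less RNA per cell cannot be told apart.

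PXR and CAR bind drugs, steroids and other foreign compounds, pair with an RXR and switch on P450 enzymes, conjugating enzymes and efflux pumps. FXR binds bile acids and also pairs with an RXR, and it switches on SHP, a receptor without a DNA-binding domain that represses bile acid synthesis. LXR alpha responds to oxidized cholesterol, and the aryl hydrocarbon receptor, which is not a nuclear receptor, pairs with ARNT on binding planar aromatic ligands. Por hands electrons from NADPH to the microsomal P450 enzymes that these receptors induce.

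Library totals ranged from 19916430 to 24079736 counts. Hira had 128 to 171 counts in the controls and 87 to 127 in the HIRA livers at 3 weeks, and 105 to 157 against 109 to 136 at 6 months. Its log2 fold change was -0.48 ± 0.14 (SE) at 3 weeks and -0.10 ± 0.14 at 6 months. It was not called at either time (adjusted p = 0.197 and 0.794, edgeR), and a Cas9 cut need not remove a transcript. The study reports loss of the HIRA protein by western blot for this CRISPR knockout. The library labelled replicate 5 of the HIRA group at 6 months had 9 Xist counts and 2041 counts of Y-linked genes, where the other 19 libraries had 6286 to 8436 and 0 to 13, so it went against its label as female. Values without it stand beside the results that it moves most, and genes named only because they were called without it were singled out after their values were seen. The summed level of 12 hepatocyte markers ranged from 110250 to 204538 CPM (counts scaled to library size) over all livers, and 0 of 12 markers were called between the arms at either time by edgeR, with 4 at an unadjusted p under 0.05 at 3 weeks and 1 at 6 months, as were 8.87 and 15.5% of all tested genes. Markers of bile duct, Kupffer, stellate, sinusoidal endothelial and lymphoid cells were present in all groups and likewise had 0 calls between the arms in edgeR, DESeq2 and limma-voom at each time. On the average of both times edgeR and limma-voom again called no marker, while DESeq2 called the B-cell genes Cd79a (log2 fold change 0.66, adjusted p = 0.04) and Cd79b (0.65, 0.0316) and the hepatocyte genes Alb (0.31, 0.0191) and Fgb (-0.52, 0.0383). At an unadjusted p under 0.05 there were 3 of 12 lymphoid markers at 3 weeks, and 3 of 12 stellate, 5 of 12 endothelial and 1 of 12 lymphoid markers at 6 months. Of the lymphoid markers 11 of 12 were positive at 3 weeks (median log2 fold change 0.50), as were all 12 stellate (0.47), endothelial (0.30) and lymphoid (0.43) markers at 6 months, beside medians of -0.01 and 0.03 over all genes. At 3 weeks 10 of 12 stellate (0.06), 11 of 12 endothelial (0.14), 9 of 12 Kupffer (0.06) and 4 of 9 bile duct markers (-0.02) were positive. At 6 months 7 of 9 bile duct markers (0.22) were positive and 2 of 12 Kupffer markers (-0.13), which became 7 (0.41) and 9 (0.07) without the library that went against its label. Summed, the stellate markers were at 317 to 565 CPM in the controls and 389 to 1106 CPM in the HIRA livers at 6 months, the endothelial at 293 to 527 and 374 to 583 CPM, and the lymphoid at 17.7 to 72.1 and 15.7 to 74.1 CPM. Without the library that went against its label, 9 of 12 stellate, 9 of 12 endothelial and 5 of 12 lymphoid markers were at an unadjusted p under 0.05 at 6 months, beside 17.7% of all genes, with medians of 0.58, 0.43 and 0.65 and 0 calls in edgeR. On the average the genes that edgeR then called higher included Cd79a, Cd79b and the endothelial gene Oit3 (adjusted p from 0.0157 to 0.0485). The part of these cells in the results was not tested.

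Levels of different genes were compared per length, as FPKM over all 20 livers. Por and Nr1i3 stood highest, with means of 136 ± 35.7 (SD, n = 20) and 136 ± 30.9 FPKM. Rxra followed at 74.8 ± 7.85, then Nr1h4 at 50.4 ± 5.67, Nr1h3 at 50.1 ± 4.64, Nr0b2 at 44.9 ± 16.8 and Nr1i2 at 30 ± 3.29 FPKM. Rxrb at 15.2 ± 1.54 and Ahr at 5.73 ± 1.17 FPKM stood lowest. The 7 upper genes overlapped in range from each to the next, and only Nr1i2 with Rxrb and Rxrb with Ahr, 2 of 8 neighbouring pairs, did not. The rank of Nr1i3 depended on the measure: CPM per kilobase of all annotated exons put it 7th, at 37.3, where 1 pair did not overlap. The length used differs between these measures and the program that made them may too, and their parts were not separated. An opposite-strand gene, Tomm40l, overlaps Nr1i3 and had 8.2% as many counts, and whether the counting used strand was not given.

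The genes differed in how steady they were between livers of 1 group. Pooled over the groups, the SD of log2 CPM was 0.49 for Nr0b2 and 0.44 for Nr1i3, higher than in 88.1 and 84.6% of the 12903 genes with a mean of at least 1 CPM. Nr1h3 and Rxrb were the steadiest, with an SD of 0.12 each, at 14.4 and 14.8%. Por (0.28), Ahr (0.24), Nr1h4 (0.20), Rxra (0.18) and Nr1i2 (0.17) lay between. Without the library that went against its label Nr1h4 became the steadiest, at 0.10, while Nr0b2 and Nr1i3 had 0.47 and 0.40. The smallest change that could be called was therefore larger for SHP and CAR than for the retinoid partners.

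The promoters of the 2 least steady genes and of Por are shown with the motifs searched in them. Por had the largest difference between the arms averaged over both times. Sequences are the 250 bases upstream of the RefSeq start on GRCm38.p6, read 5′ to 3′ on the strand of the gene, and capitals mark matches on either strand to CACGTG (an E-box, which clock and other bHLH factors bind) or to GCGTG (the core of the element bound by the aryl hydrocarbon receptor with ARNT, which reads CACGC on the other strand). Nr1i3 lies at chr1:171213720-171213969, Nr0b2 at chr4:133553126-133553375 and Por at chr5:135688895-135689144, all on the plus strand.
Nr1i3: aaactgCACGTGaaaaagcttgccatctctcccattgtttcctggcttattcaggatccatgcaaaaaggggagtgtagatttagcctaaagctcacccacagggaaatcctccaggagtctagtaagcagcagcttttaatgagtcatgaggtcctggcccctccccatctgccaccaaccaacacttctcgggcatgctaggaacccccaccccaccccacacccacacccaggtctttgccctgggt
Nr0b2: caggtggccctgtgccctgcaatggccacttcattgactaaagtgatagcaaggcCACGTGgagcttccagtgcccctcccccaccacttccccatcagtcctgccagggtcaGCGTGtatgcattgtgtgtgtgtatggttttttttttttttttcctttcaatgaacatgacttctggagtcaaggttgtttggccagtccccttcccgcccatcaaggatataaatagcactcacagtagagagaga
Por: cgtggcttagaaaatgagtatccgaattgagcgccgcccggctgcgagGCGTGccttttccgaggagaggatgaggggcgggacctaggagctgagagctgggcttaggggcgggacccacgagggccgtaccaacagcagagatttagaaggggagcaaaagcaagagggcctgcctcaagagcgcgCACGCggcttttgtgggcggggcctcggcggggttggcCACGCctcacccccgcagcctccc
The windows searched for motifs ran from 250 bases before the start to 50 after it. Nr1i3 and Nr0b2 each held an E-box, 244 and 195 bases upstream, against 7.15% of 32851 promoter windows with at least 1. Por held 3 GCGTG cores, 202, 62 and 24 bases upstream, and Nr0b2 held 1 at 137. Rxrb held cores at both of its starts, 218 bases upstream of 1, and 54 upstream and 43 downstream of the other. At least 1 core was in 32.4% of all windows, whatever their CpG content. The D-box TTANNTAA, bound by Dbp, Tef and Hlf, was found in none of the 3 promoters shown and in 6.0% of all windows. Among the receptors only Nr1h4 had a D-box, 131 bases upstream. The receptor half-site AGGTCA, which can be part of the longer repeats named DR4 and IR1, was found in Nr1h4 and at a second start of Rxra, and in 16.3% of all windows. DR4 and IR1 had no match in the receptor genes or Por and were in 0.12 and 0.03% of windows. Por and Rxrb had CpG-rich starts, with 21 CpG for Por and 31 and 39 for the starts of Rxrb. Rxra had a start with 40 CpG and a second, which held the half-sites, with 1, while Nr1i2, Nr1i3 and Nr0b2 had 2, 2 and 3 against a median of 6.0. Of the 9 genes, 8 had a window. A match is a run of letters and not a shown binding site.

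**Figure D1:**
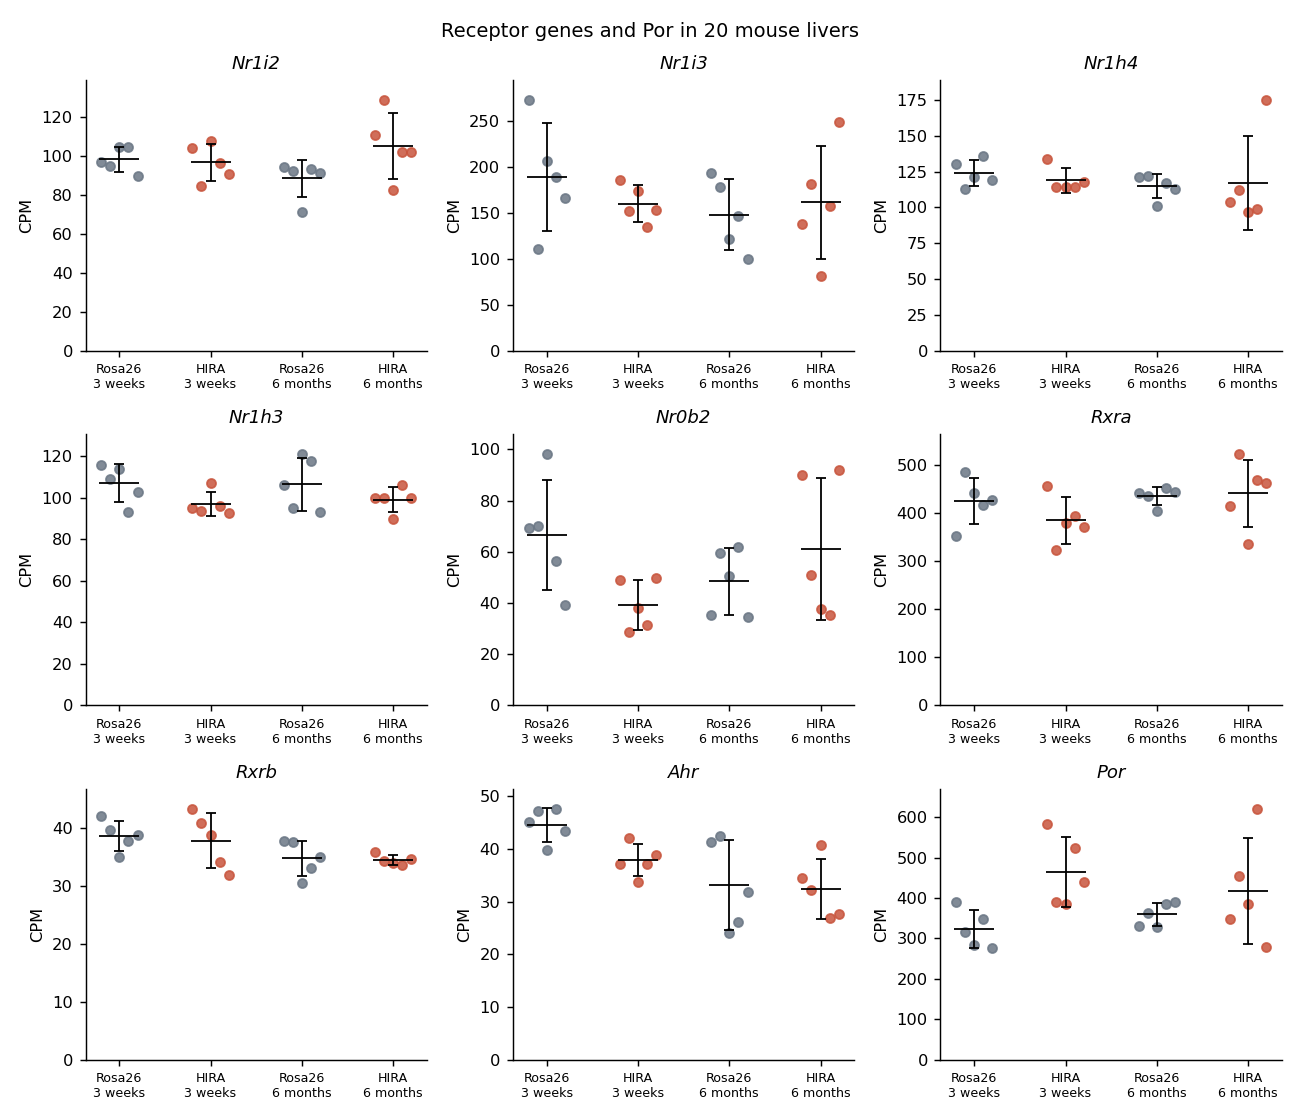
Level of each of the 9 genes, in CPM on linear axes from 0, in the 5 livers of each group (gray, Rosa26 guide; red, HIRA guide); points are livers in the order of their replicate numbers, and bars are the mean and SD. The groups overlapped for every gene, Por lay higher and Nr0b2 lower in most HIRA livers at 3 weeks, and for Nr1h4 1 HIRA liver at 6 months, at 175 CPM, stood apart.

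The first question was whether the HIRA guide changed the level of the sensors themselves, and at neither time did a difference pass the test. With the quasi-likelihood test of edgeR and a call at an adjusted p under 0.05 over all genes, 0 of 9 were called at 3 weeks, where 0.197% of all tested genes were, and 0 of 9 at 6 months, where 1.31% were. At an unadjusted p under 0.05 there were 2 at 3 weeks (Por and Nr0b2) and 1 at 6 months (Nr1i2), beside 8.87 and 15.5% of all genes, and DESeq2 and limma-voom also called 0 at each time. Leaving out the library that went against its label gave 2 at 6 months, Nr1i2 and Por, beside 17.7% of all genes. The livers of the arms overlapped for all 9 at both times, while 2.69% of all tested genes at 3 weeks and 3.15% at 6 months had groups that did not overlap. The median log2 fold change of the 9 was -0.14 at 3 weeks and 0.03 at 6 months, beside -0.01 and 0.03 over all tested genes. The 95% intervals bound what could have been missed: they ran from -1.34 (Nr0b2) to 0.87 (Por) at 3 weeks and from -0.38 (Nr1i3) to 0.91 (Nr0b2) at 6 months.

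**Figure D2:**
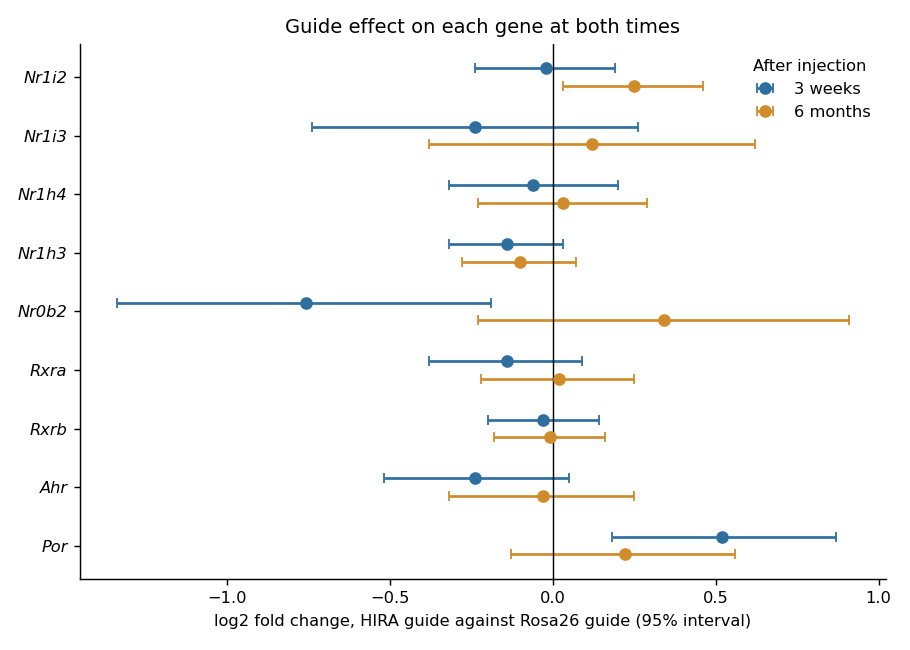
Log2 fold change of each gene between the HIRA and Rosa26 guides at 3 weeks (blue) and 6 months (orange), with points for the edgeR estimate and bars for its 95% interval, 5 livers against 5. The interval of Por at 3 weeks (0.18 to 0.87) lay above 0 and that of Nr0b2 (-1.34 to -0.19) below it, Nr1i2 lay above 0 at 6 months (0.03 to 0.46), and no difference passed the adjusted threshold.

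Por (chromosome 5, 135670033 to 135735326, GRCm38) showed the largest upward difference among the 9 genes. At 3 weeks it was at 390, 315, 284, 349 and 277 CPM in the control livers and at 584, 391, 385, 525 and 439 CPM in the HIRA livers. All but one of the HIRA livers lay above every control, and the exception, at 385, lay just under the highest control. The level was 1.44-fold higher (log2 fold change 0.52 ± 0.17 SE), with an unadjusted p of 0.0049 and an adjusted p of 0.256 in the edgeR fit. At 6 months the controls were at 331, 364, 328, 385 and 390 CPM and the HIRA livers at 347, 454, 386, 621 and 279. The HIRA livers spread to both sides of the controls there, and the lowest was the library that went against its label. The log2 fold change was 0.22 ± 0.17 (adjusted p = 0.586, edgeR), and it was 0.33 without that library (adjusted p = 0.27) and 0.03 without replicate 4, the highest HIRA liver (adjusted p = 0.951). The 2 guide effects did not differ detectably, by -0.31 ± 0.24 on the log2 scale (interval -0.80 to 0.18, adjusted p = 0.86, edgeR).

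Averaging the guide effect over both times, Por was 1.29-fold higher with the HIRA guide (log2 fold change 0.37 ± 0.12, interval 0.12 to 0.62) and stayed short of the threshold, with an adjusted p of 0.0989 in edgeR. By that test 0 of the 9 genes were called on the average, where 2.85% of all genes were, and Por was the only one at an unadjusted p under 0.05, as were 16.6% of all genes. DESeq2 called Por (0.37, adjusted p = 0.0409) and limma-voom called none of the 9. Without the library that went against its label, edgeR called Por as well (0.43, adjusted p = 0.0273). The remaining averaged log2 fold changes lay between -0.21 (Nr0b2) and 0.11 (Nr1i2).

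Genes of the evening phase of the clock were called in the 3-week comparison, where Por was not. Of 9 such genes, 5 rose in the HIRA livers at 3 weeks in edgeR, where 0.197% of all genes were called, and their summed level was 300 to 734 CPM against 169 to 285 in the controls. Dbp, a D-box factor of the clock output, was 1.52 to 3.54 CPM in the controls and 9.05 to 104 CPM in the HIRA livers (log2 fold change 4.55 ± 0.79, adjusted p = 0.0251, edgeR), and Tef changed by 1.47 ± 0.29 (adjusted p = 0.0412). Limma-voom called 1 of these 9 evening genes and DESeq2 6. The 5 morning genes had 0 positive values at 3 weeks (median -1.04), with 0 called in edgeR and limma-voom, 3 at an unadjusted p under 0.05 and 1 called lower in DESeq2, and they summed to 157 to 191 CPM in the controls and 50.9 to 139 CPM in the HIRA livers. At 6 months edgeR and limma-voom called 0 of 9 evening genes and DESeq2 1, with 1 at an unadjusted p under 0.05 in edgeR and a median of 0.09, which was -0.08 without the library that went against its label. In the controls, 4 evening genes also rose between 3 weeks and 6 months in edgeR, where 0.324% of all genes were called (6 in DESeq2 and 0 in limma-voom), and Dbp reached 18.1 to 95.1 CPM, while Por moved there by 0.15 ± 0.17 on the log2 scale (adjusted p = 0.769, edgeR). The part of the clock in the Por difference was not tested, and the hour of collection was not given in the sources used here.

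Among the xenobiotic receptors proper, neither PXR nor CAR differed between the arms past the threshold. Nr1i2 (chromosome 16, 38248323 to 38294824) was at 97.1, 95.2, 105, 105 and 90 CPM in the controls at 3 weeks and at 104, 84.7, 108, 96.7 and 90.9 CPM in the HIRA livers. These ranges coincided almost fully, and the log2 fold change of -0.02 ± 0.10 had an interval of -0.24 to 0.19. At 6 months Nr1i2 was at 94.4, 92.2, 71.5, 93.5 and 91.2 CPM in the controls and at 111, 129, 82.6, 102 and 102 CPM with the HIRA guide. All HIRA livers except replicate 3 lay above all controls, a difference of 1.19-fold (log2 0.25 ± 0.10) with an unadjusted p of 0.0266 and an adjusted p of 0.248 in edgeR.

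CAR varied far more from liver to liver. Nr1i3 (chromosome 1, 171213970 to 171220701) was at 273, 111, 206, 189 and 166 CPM in the controls and 186, 152, 174, 135 and 153 CPM in the HIRA livers at 3 weeks. At 6 months it was at 193, 178, 122, 147 and 99.9 CPM in the controls and at 138, 181, 81.9, 157 and 249 CPM with the HIRA guide. The HIRA livers fell inside the control range at 3 weeks and reached beyond it on both sides at 6 months, and the highest was again the library that went against its label. Log2 fold changes were -0.24 ± 0.24 (interval -0.74 to 0.26) and 0.12 ± 0.24 (interval -0.38 to 0.62), and the second became -0.09 without that library.

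Of the retinoid X receptors, the shared partners of PXR, CAR, FXR and LXR, Rxrb was steady. Rxra, with an SD of 0.18, lay near the median spread of all genes (0.20). Rxra (chromosome 2, 27676440 to 27762957) ranged from 322 to 522 CPM over the 20 livers and differed between the arms by -0.14 ± 0.11 at 3 weeks and 0.02 ± 0.11 at 6 months on the log2 scale. Rxrb (chromosome 17, 34031812 to 34038399) ranged from 30.5 to 43.3 CPM and differed by -0.03 ± 0.08 and -0.01 ± 0.08. For Rxrb the intervals, -0.20 to 0.14 and -0.18 to 0.16, leave room for only a small change.

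FXR itself was close to level between the arms, whereas SHP, its target, lay lower in the HIRA livers at 3 weeks without passing the test. Nr1h4 (chromosome 10, 89454234 to 89533585) ranged from 113 to 136 CPM in all livers at 3 weeks and differed by -0.06 ± 0.12. At 6 months it was at 104, 112, 96.5, 98.7 and 175 CPM in the HIRA livers and at 101 to 122 CPM in the controls. The value of 175 came from the library that went against its label, and the log2 fold change of 0.03 ± 0.12 became -0.16 without it (adjusted p = 0.314, edgeR).

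Nr0b2 (chromosome 4, 133553376 to 133556536) was at 69.1, 70, 98.1, 56.3 and 39.1 CPM in the controls and at 48.8, 28.8, 37.9, 31.2 and 49.6 CPM in the HIRA livers at 3 weeks. Replicates 2, 3 and 4 of the HIRA group lay below every control, and the other two lay within the control range. The level was 41.0% lower (log2 fold change -0.76 ± 0.28), with an unadjusted p of 0.012 and an adjusted p of 0.372 in edgeR. The value had the opposite sign at 6 months, where the controls were at 35.3, 59.6, 50.6, 61.8 and 34.6 CPM and the HIRA livers at 89.9, 51, 37.5, 35.3 and 92 CPM. There, replicates 1 and 5 of the HIRA group stood above every control, and the log2 fold change was 0.34 ± 0.27 (adjusted p = 0.609, edgeR). The value was 0.14 without replicate 5. Between the times the guide effect on Nr0b2 differed by 1.10 ± 0.39 (interval 0.29 to 1.91), with an unadjusted p of 0.0103 and an adjusted p of 0.685. In that comparison edgeR called 0 of the 9 genes and 0% of all genes, with Nr0b2 the only 1 of the 9 at an unadjusted p under 0.05, and DESeq2 and limma-voom also made 0 calls.

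LXR alpha and the aryl hydrocarbon receptor lay slightly lower in the HIRA livers at 3 weeks without passing the test. Nr1h3 (chromosome 2, 91184061 to 91202834) ranged from 93.4 to 116 CPM in the controls and 92.7 to 107 CPM in the HIRA livers, a log2 difference of -0.14 ± 0.08. At 6 months its difference was -0.10 ± 0.08, and the averaged value was -0.12 ± 0.06 (unadjusted p = 0.0532, adjusted p = 0.309, edgeR). Ahr (chromosome 12, 35497974 to 35535038) was at 45.1, 47.1, 39.7, 47.6 and 43.3 CPM in the controls at 3 weeks and at 37.2, 42.1, 33.8, 37.2 and 38.8 CPM with the HIRA guide. All HIRA livers but replicate 2 lay below all controls, and the log2 difference was -0.24 ± 0.14 (adjusted p = 0.681, edgeR). By 6 months the ranges were 24.1 to 42.5 CPM and 26.9 to 40.7 CPM, a difference of -0.03 ± 0.14.

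Time after injection, which is also a difference in age, was compared within each arm. In the controls edgeR called 0 of 9 genes, where 0.324% of all genes were called, and 1 of 9 was at an unadjusted p under 0.05, as were 12.8% of all genes. That gene was Ahr, which was at 41.2, 42.5, 24.1, 26.1 and 31.8 CPM in the controls at 6 months. Replicates 3, 4 and 5 there lay below every control at 3 weeks, and the difference of -0.43 ± 0.14 had an unadjusted p of 0.00562 and an adjusted p of 0.175. In the HIRA arm 0 of 9 were called, where 0.0656% of all genes were, and Nr0b2 was the only one at an unadjusted p under 0.05 (log2 difference 0.64 ± 0.28, adjusted p = 0.51, edgeR). Leaving out the library that went against its label gave 0.45 (unadjusted p = 0.119, adjusted p = 0.621). DESeq2 and limma-voom made 0 calls among the 9 in both comparisons.

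Target genes were examined next, since a receptor can change its activity with no change in its RNA. The counts of each list are to be read beside those over all genes in edgeR: 0.197% were called at 3 weeks, 1.31% at 6 months and 2.85% on the average, and 8.87, 15.5 and 16.6% were at an unadjusted p under 0.05. Of 30 known PXR and CAR target genes, 1 was called higher at 6 months and 0 lower, by edgeR, DESeq2 and limma-voom alike. At 3 weeks edgeR called 0, with 7 at an unadjusted p under 0.05, DESeq2 called 1 and limma-voom 0. Their median log2 fold change was 0.19 at 3 weeks and 0.11 at 6 months, beside -0.01 and 0.03 over all genes, and 23 of 30 were positive at each time, where 49 and 54.3% of all genes were. At 6 months 4 were at an unadjusted p under 0.05, and without the library that went against its label 7 were, with 17 of 30 positive and a median of 0.08.

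The gene called was Cyp3a11, the main drug-metabolizing P450 of the Cyp3a family in mouse liver and a classic PXR target. At 3 weeks it was at 1725, 1551, 2478, 1919 and 2310 CPM in the controls and at 3675, 2866, 3918, 3094 and 3277 CPM in the HIRA livers. At 6 months it was at 1844, 1880, 1569, 1356 and 2050 CPM in the controls and at 4132, 2598, 4789, 2589 and 3498 CPM with the HIRA guide. Every HIRA liver lay above every control at both times. Cyp3a11 was 2.02-fold higher at 6 months (log2 fold change 1.02 ± 0.17, adjusted p = 0.0138, edgeR), a call lost when only the 10 libraries of that time were fitted (1.01, adjusted p = 0.104). The 3-week difference of 1.69-fold (log2 0.75 ± 0.17) missed the threshold in edgeR (adjusted p = 0.0819) and passed it in DESeq2 (0.00302). The averaged guide effect on Cyp3a11 was 1.85-fold (log2 0.89 ± 0.12, adjusted p = 0.00102, edgeR), and it was called under all 29 alternatives run. Cyp3a11 has close relatives in its gene cluster, between which the counting may have split reads.

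No other gene of this list was called by edgeR. On the average of both times DESeq2 called 3 higher and limma-voom 2, Cyp3a11 among them, and Gsta2, a glutathione transferase, was called by both (log2 0.93, adjusted p = 0.0476, and 1.12, adjusted p = 0.045) and Gstm1 by DESeq2 alone (0.30, adjusted p = 0.0348). Cyp2b10, the classic CAR target, was at 30.1 to 64.7 CPM in the controls and at 65.4 to 121 CPM in the HIRA livers at 3 weeks. Those ranges did not overlap by a narrow margin, yet the log2 difference of 0.73 ± 0.34 had an adjusted p of 0.551 in edgeR. Cyp2b10 differed by 0.09 ± 0.34 at 6 months, where the library that went against its label had 11.5 CPM and the other HIRA livers 58.8 to 104 CPM, and the value was 0.35 without it. Cyp2c55 differed by 0.93 ± 0.43 and 0.25 ± 0.41 (adjusted p = 0.547 and 0.836). The 6-month value rested on single livers, being -0.19 without HIRA replicate 3 (27.8 CPM) and 1.07 without control replicate 5 (30.8 CPM, adjusted p = 0.0993, edgeR). The efflux pump gene Abcc3 differed by -0.14 ± 0.15 and 0.07 ± 0.15. Alas1, which opens haem synthesis, differed by -0.18 ± 0.23 and 0.59 ± 0.23 (adjusted p = 0.909 and 0.214, edgeR), and the second was 0.73 without that library (adjusted p = 0.0788).

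**Figure D3:**
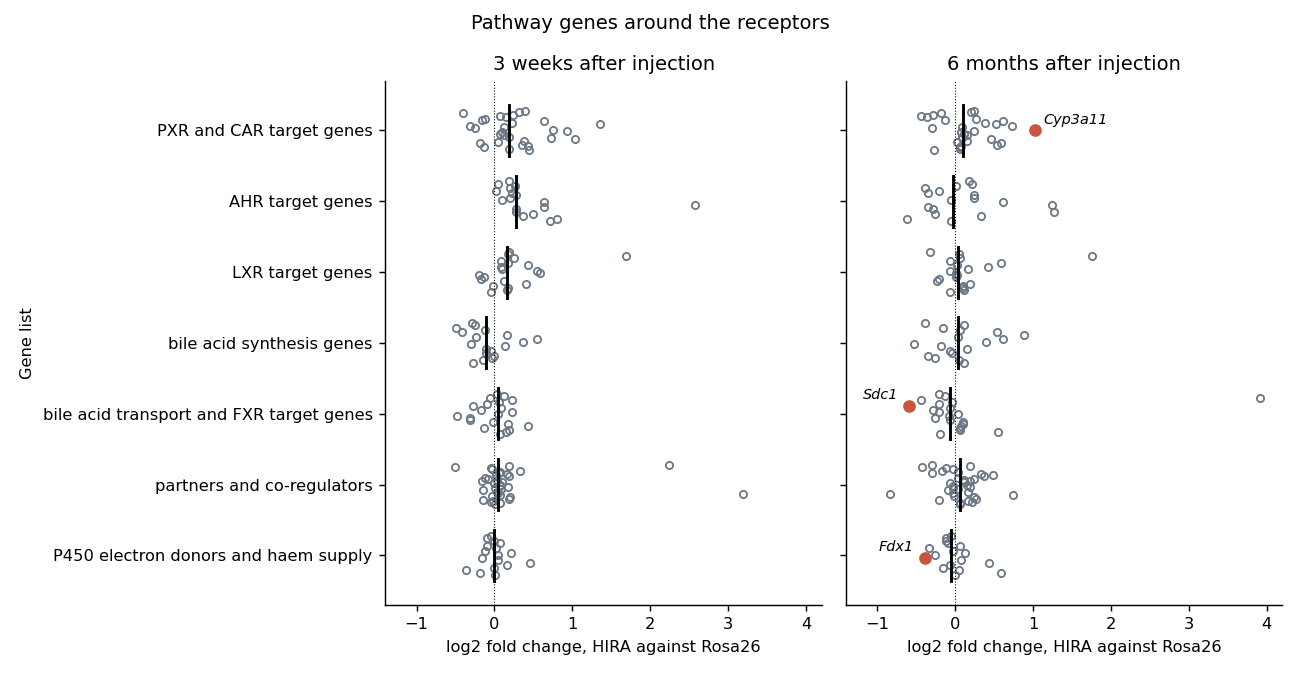
Log2 fold change between the HIRA and Rosa26 guides at 3 weeks (left) and 6 months (right) for each gene of the 7 pathway lists; open points are genes not called, filled red points are genes at an adjusted p under 0.05 in edgeR, and bars are list medians. No gene was called at 3 weeks, and Cyp3a11, Sdc1 and Fdx1 were at 6 months.

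Bile acid synthesis genes, 18 in number, had 0 calls in edgeR at either time, with 2 at an unadjusted p under 0.05 at 3 weeks and 5 at 6 months. Of the 18, 4 were positive at 3 weeks (median log2 fold change -0.12) and 10 at 6 months (0.05). Without the library that went against its label, 4 were at an unadjusted p under 0.05 at each time, beside 9.85 and 17.7% of all genes. At 6 months 6 of 18 were then positive (-0.11). DESeq2 called 2 lower at 6 months and limma-voom 1, and neither called any at 3 weeks. With the library that went against its label left out, edgeR called Slc27a5 lower at 6 months as well (-0.41, adjusted p = 0.0377). On the average of both times 2 fell, Slc27a5 and Cyp2c70, and 0 rose, in all 3 tools. Slc27a5, which attaches coenzyme A to bile acids before their conjugation, was at 1134 to 1330 CPM in the controls and 885 to 1091 CPM in the HIRA livers at 3 weeks, and at 1041 to 1234 CPM against 742 to 971 CPM at 6 months. All HIRA livers lay below all controls at each time, and the averaged fall was to 0.794-fold (log2 -0.33 ± 0.07, adjusted p = 0.0094, edgeR), called under all 29 alternatives. Cyp2c70, which hydroxylates bile acids to muricholic acids, changed by -0.41 ± 0.11 on the average (adjusted p = 0.0494), a call kept in 8 of 29 alternatives and therefore marginal. Its lowest liver, at 304 CPM, was the one that went against its label, and without it the change was -0.34 (adjusted p = 0.0312).

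The rate-limiting enzyme of the classic pathway did not show a detectable change. Cyp7a1 ranged from 10.5 to 104 CPM over the 20 livers, and its log2 differences were -0.24 ± 0.49 and 0.04 ± 0.49. Cyp8b1, which sets the share of cholic acid, differed by -0.42 ± 0.39 at 3 weeks and 0.54 ± 0.39 at 6 months (adjusted p = 0.856 and 0.551, edgeR), and the second was 0.07 without the library that went against its label, which had 352 CPM. Cyp27a1, which starts the alternative pathway, differed by -0.11 ± 0.11 and 0.15 ± 0.11. Only a large change of Cyp7a1 or Cyp8b1, the genes that SHP represses, could have passed the test with this spread.

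Among 21 genes of bile acid transport and other FXR targets, edgeR called 1 lower and 0 higher at 6 months, limma-voom the same numbers, and DESeq2 1 lower and 1 higher. At 3 weeks edgeR called 0, with 2 at an unadjusted p under 0.05, and DESeq2 and limma-voom also called 0. There were 3 at an unadjusted p under 0.05 at 6 months in edgeR. Without the library that went against its label there were 4 at 3 weeks and 5 at 6 months, beside 9.85 and 17.7% of all genes. Sdc1, a heparan sulfate proteoglycan of the hepatocyte surface, was at 451, 413, 402, 513 and 669 CPM in the controls and at 296, 363, 379, 325 and 265 CPM with the HIRA guide at 6 months. The groups did not overlap, and the level was 0.664-fold that of the controls (log2 -0.59 ± 0.13, adjusted p = 0.0292, edgeR). Leaving out replicate 5 of the controls, the highest liver, gave -0.45 for Sdc1 (adjusted p = 0.0648). On the average edgeR called Sdc1 alone (-0.43, adjusted p = 0.0115), and without the library that went against its label also Atp8b1 (-0.35, 0.046) and Fetub (-0.38, 0.019), all lower. Abcb4, the phospholipid pump of the bile canaliculus, was the gene that DESeq2 called higher, and it was singled out after its values were seen. At 6 months Abcb4 was at 183, 185, 145, 151 and 143 CPM in the controls and at 259, 222, 231, 207 and 260 CPM with the HIRA guide, so that all HIRA livers lay above all controls. It was 1.46-fold higher (log2 0.55 ± 0.14), with an adjusted p of 0.0577 in edgeR and 0.0117 in DESeq2, and it differed by 0.15 ± 0.14 at 3 weeks. The other transporters named here were not called between the arms at either time by edgeR, DESeq2 or limma-voom: the bile salt export pump Abcb11 differed by 0.07 ± 0.09 and -0.19 ± 0.09 (adjusted p = 0.918 and 0.326) and the uptake carrier Slc10a1 by -0.09 ± 0.21 and -0.20 ± 0.21. The basolateral exporter subunits Slc51a and Slc51b lay between 0.101 and 2.1 CPM in every liver.

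**Figure D4:**
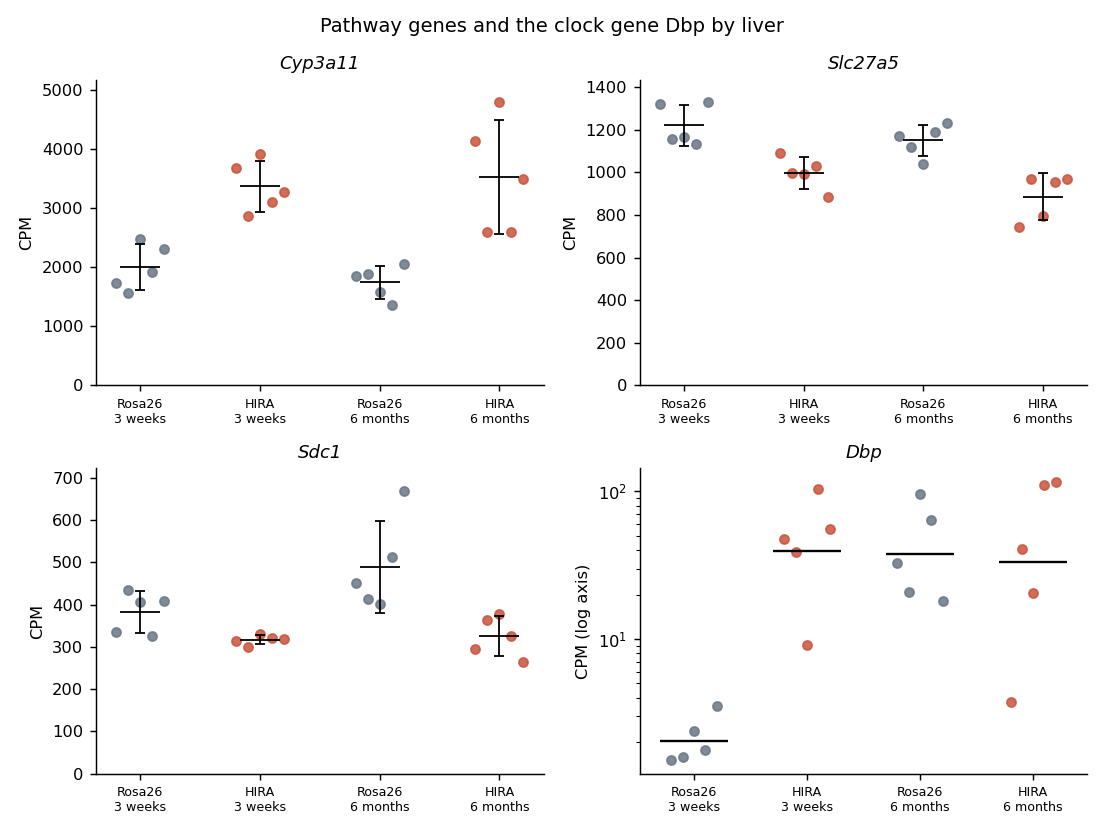
Levels in CPM of Cyp3a11, Slc27a5, Sdc1 (linear axes from 0, bars for mean and SD) and Dbp (log axis, bars for the geometric mean) in the 5 livers of each group, gray for the Rosa26 and red for the HIRA guide. Cyp3a11 was higher and Slc27a5 lower in every HIRA liver than in every control of the same time, Sdc1 separated at 6 months, and Dbp was lowest in the controls at 3 weeks (1.52 to 3.54 CPM), next to which 1 HIRA liver at 6 months had 3.75 CPM.

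LXR target genes, 20 in the list, had 0 calls in edgeR at either time and on the average, with 3, 2 and 5 at an unadjusted p under 0.05. Of the 20, 15 were positive at 3 weeks (median log2 fold change 0.16) and 14 at 6 months (0.04), where 49 and 54.3% of all genes were. Without the library that went against its label, 4 were at an unadjusted p under 0.05 at 6 months, beside 17.7% of all genes. DESeq2 and limma-voom called 0 at each time, and on the average DESeq2 called 2 higher (Acaca, 0.29, and Scd2, 1.72) and limma-voom 0. With the library that went against its label left out, edgeR called Mylip, a degrader of the LDL receptor, higher at 6 months (0.75, adjusted p = 0.0204), and Mylip (0.46, 0.0211) and Scd2 (1.88, 0.013) on the average. The cholesterol pump Abca1 differed by -0.04 ± 0.10 and -0.06 ± 0.10, Abcg5 by 0.17 ± 0.16 and 0.10 ± 0.16, and the lipogenic factor Srebf1 by 0.19 ± 0.21 and -0.32 ± 0.21. Of 18 target genes of the aryl hydrocarbon receptor, 18 had a positive value at 3 weeks and 9 at 6 months, with medians of 0.27 and -0.02. Some genes of this list had only 0 to 7 counts in every liver at 3 weeks, so their signs carry little weight. EdgeR called 0 of these 18 at either time, with 3 at an unadjusted p under 0.05 at each. Without the library that went against its label there were 6 at 3 weeks and 3 at 6 months, beside 9.85 and 17.7% of all genes. DESeq2 called 1 at 3 weeks and 0 at 6 months, and limma-voom called 0 at both. The summed evening clock genes were also higher at 3 weeks, as given above, and their part in these values was not tested.

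Single targets of the aryl hydrocarbon receptor varied widely between livers. Cyp1a2, the main liver P450 of this group, was at 417 to 935 CPM in the controls and 668 to 957 CPM in the HIRA livers at 3 weeks (log2 0.49 ± 0.18, adjusted p = 0.385, edgeR). At 6 months Cyp1a2 was at 501 to 631 CPM and 363 to 595 CPM (log2 -0.26 ± 0.18, adjusted p = 0.514). Tiparp, a feedback repressor of the receptor, differed by 0.20 ± 0.14 and -0.38 ± 0.14 (adjusted p = 0.76 and 0.174), and Cyp1a1 by 0.37 ± 0.34 and 0.33 ± 0.35. On the average of both times Gsta1, a glutathione transferase, was the one gene of the list called higher (log2 1.91 ± 0.49, adjusted p = 0.0394, edgeR). Gsta1 lay at 0 to 8.38 CPM in the 20 livers, shares sequence with close relatives, and was not called by limma-voom (adjusted p = 0.0666). Its call was kept in 18 of 29 alternatives and was lost on leaving out any 1 of 10 libraries (adjusted p up to 0.0767).

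Partners and co-regulators of the receptors, 35 in number, had 0 calls in edgeR at 3 weeks and at 6 months, with 4 and 7 at an unadjusted p under 0.05. DESeq2 called 0 at 3 weeks and 1 higher and 2 lower at 6 months, and limma-voom called 0 at both. On the average, 2 fell and 0 rose in edgeR and limma-voom, while DESeq2 called the same 2 lower and Nr2f2 higher (0.25, adjusted p = 0.0238). They were Rxrg, the third retinoid X receptor, to 0.728-fold (log2 -0.46 ± 0.11, adjusted p = 0.0204), and Dnajc7, a co-chaperone that holds CAR in the cytoplasm, to 0.882-fold (log2 -0.18 ± 0.04, adjusted p = 0.0206). The Dnajc7 call was lost with no filter (adjusted p = 0.0593) and with FPKM (up to 0.159). Rxrg lay at 6.04 to 15.9 CPM, far below its relative Rxra in counts. Hnf4a, the hepatocyte factor that acts with PXR and CAR on many P450 genes, differed by 0.03 ± 0.11 and 0.17 ± 0.11, Ppargc1a by 0.33 ± 0.16 and -0.17 ± 0.16 and Arnt by 0.07 ± 0.07 and 0.06 ± 0.07. None of these 3 was called.

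Around Por, 17 genes that carry electrons to P450 enzymes or supply haem had 0 calls at 3 weeks in edgeR, with 2 at an unadjusted p under 0.05, while DESeq2 called 1 and limma-voom 0. At 6 months 1 fell and 0 rose in edgeR and in limma-voom, while DESeq2 called 1 lower and Cyb5r1 higher (0.41, adjusted p = 0.0323). Fdx1, the ferredoxin of mitochondrial P450 enzymes, was at 67.7, 64.1, 62.4, 79.1 and 76.5 CPM in the controls and at 47.3, 53.7, 51.5, 53.2 and 61.9 CPM with the HIRA guide. These groups did not overlap, by a narrow margin, and the level was 0.765-fold that of the controls (log2 -0.39 ± 0.09, adjusted p = 0.0379, edgeR). The Fdx1 call was lost on leaving out any 1 of replicates 1 to 4 of the HIRA group or replicates 1, 4 and 5 of the controls at 6 months (adjusted p from 0.0514 to 0.127). On the average Cyb5r1, a cytochrome b5 reductase, rose 1.35-fold (log2 0.44 ± 0.09, adjusted p = 0.00797) and Fdx1 fell, while cytochrome b5 itself (Cyb5a) differed by -0.09 ± 0.08.

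Genes whose levels ran most like those of the 9 across the 20 livers, after the mean of each group was removed, are a description, since the livers share libraries and depth with every gene compared. Nr1i3 ran with Acad11, a gene of fatty acid oxidation (Pearson r = 0.89 over 20 livers, among 12903 genes). Nr0b2 ran with Ldha and Slc25a33 (0.81 and 0.80), and Por with Zkscan17 and Scpep1 (0.80 each). Rxra ran with Sdc4 and Arl15 (0.92 and 0.84), Nr1h4 with Nrbp1 and Ubap1 (0.92 and 0.91), Nr1h3 with Psme1 and Pex16 (0.89 and 0.87), and Ahr with Zbtb40 and Rbm15b (0.88 and 0.87). Nr1i2 ran with Ccdc174 and Klhl3 (0.83 each) and Rxrb with Lrwd1 and Zfp454 (0.83 and 0.82). Within the 9, the highest value was 0.70 for Nr1i3 with Nr1h4 and the lowest -0.69 for Nr1h3 with Ahr. Without the library that went against its label, these were 0.66 and -0.71 over 19 livers, and the highest was then 0.69, for Nr1i2 with Nr1h4 (0.31 with it). The values most changed among the alike genes were those of Nr1h4 with Nrbp1 and Ubap1, at 0.78 and 0.59 without it.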

How the data were processed

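Poly(A) RNA was sequenced from 20 livers, grouped by the sample titles. The study's methods give alignment to mm10 with STAR and counting with HOMER, and the submitters' processing notes list STAR, HTSeq and Cufflinks. The authors deposited raw counts per gene, which were tested, and FPKM values, used for levels and as an alternative, as log2(FPKM + 1) or log2(FPKM + 0.1) with limma. The library kit was directional, and the strand setting of the counting is not given in the sources used here. The study's text and figure legend differ on the sex of these mice. The labels give female, and the Xist and Y-linked counts were those of females in 19 of the 20 libraries.

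Of 55421 genes, 22854 had no count and 9700 had 1 to 9 counts, and both sets were left out. The study's filter of 10 counts and its threshold of 0.05 were kept, without its fold threshold. The main test was glmQLFit and glmQLFTest of edgeR 4.0.16 (TMM, 4 group means, all 20 libraries, 2-sided, Benjamini-Hochberg over 22867 genes), and adjusted p-values are from it unless another tool is named. The averaged effect is the mean of both guide effects. CPM are counts scaled to the TMM-adjusted library size, log2 CPM have a prior count of 2, standard errors (SE) are the log2 fold change over the square root of F, and intervals use the t distribution of the fit. DESeq2 1.42.0 and limma 3.58.1 (voom) ran as alternatives under R 4.3.3. Summaries and figures used Python 3.11.15 with pandas 2.3.3 and matplotlib 3.10.9. The fits were tested on simulated data with known changes. No replicates agreed within sampling noise (smallest mean chi-square per gene 15.1), and p-values measure the spread between mice.

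The genes and the 16 lists were chosen with earlier results of these data known, and lists were described without a set test. Genes named are the 9, a fixed set of pathway genes, genes called in a list (up to 6 a list) and, for each of the 9, the most alike pair of genes. A gene of the fixed set, a gene of these pairs and a marker gene are not reported here. Coordinates are GRCm38, 1-based, from GENCODE M21, where the identifier of Rxra was matched without its version. Promoters are from RefSeq. Replicate numbers were checked for pairing: 14 of 30 same-numbered pairs correlated above 0.1 (range -0.309 to 0.335). Differently numbered pairs were not compared, so the check does not decide whether the livers were paired. The main test used no block. Alternatives were other tools, scaling, filters, the block, FPKM and leaving out each library.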

Additional observations from a re-analysis of the deposited data

Results flagged for a closer look

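Among 128 groups of 5 livers tested for a liver far from the others (Dixon's test at 95%), 13 had one, where chance flags about 1 in 20. Of the sensors, Nr1i2 was low in replicate 3 of the controls at 6 months (6.16 log2 CPM), Nr1h3 was high in replicate 3 of the HIRA group at 3 weeks (6.75), and Nr1h4 was high in replicate 1 of that group (7.07) and in replicate 5 of the HIRA group at 6 months (7.45). Without the last, which went against its label as female, the 6-month guide effect on Nr1h4 was -0.16 instead of 0.03.

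Among target genes, Cyp2b10 was high in replicate 1 of the HIRA group at 3 weeks (6.92 log2 CPM) and low in replicate 5 of the HIRA group at 6 months (3.54). Cyp2c55 was high in replicate 3 of the HIRA group at 6 months (4.80). In the controls at 3 weeks, Abcc3 was low in replicate 2 (7.46), Cyp7a1 in replicate 3 (4.10) and Abca1 in replicate 1 (6.28). Slc10a1 was low in replicate 3 (8.78) and Arnt high in replicate 5 (5.51) of the HIRA group at 3 weeks, and Abcg5 was high in replicate 5 of the controls at 6 months (7.01).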

How the results depend on the processing

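The count of 0 of 9 called genes held in the 6 comparisons under every alternative run, except that Por was called on the averaged guide effect (a count of 1) with DESeq2, without HIRA replicate 5 at 6 months, and without it under a replicate block. With the block alone the count was 0 in all 6 comparisons. The averaged effect and the difference between times could not be fitted to the libraries of 1 comparison alone and were not run there. Over all genes, DESeq2 called 225 at 3 weeks and 895 at 6 months against 45 and 299 in edgeR, and limma-voom 23 and 297. Without HIRA replicate 5 at 6 months edgeR called 103 at 3 weeks, 395 at 6 months, 890 on the average (651 with it), 213 over time in the controls (74) and 28 in the HIRA arm (15). Neighbours in the level order whose ranges did not overlap numbered 2 by FPKM and 1 by CPM per kilobase. The 3-week difference of Cyp3a11 was called in 4 of 30 alternatives: the block (adjusted p = 0.0355), the block without HIRA replicate 5 (0.0213), DESeq2 (0.00302) and the libraries of that time alone (0.0204), and the averaged call of Cyp2c70 was lost with the block.

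Signs that turned were all of values that were not called. Leaving out single libraries, the log2 fold change at 3 weeks ranged from -0.07 to 0.02 for Nr1i2 and -0.08 to 0.03 for Rxrb. At 6 months it ranged from -0.09 to 0.29 for Nr1i3, -0.16 to 0.09 for Nr1h4, -0.05 to 0.10 for Rxra, -0.06 to 0.02 for Rxrb, -0.13 to 0.07 for Ahr, -0.20 to 0.35 for Cyp2b10, -0.19 to 1.07 for Cyp2c55 and -0.40 to 0.32 for Cyp7a1. Averaged, it ranged from -0.16 to 0.03 for Nr1i3, -0.11 to 0.02 for Nr1h4, -0.05 to 0.01 for Rxrb, -0.32 to 0.04 for Cyp7a1 and -0.18 to 0.18 for Cyp8b1. Over time in the controls it ranged from -0.06 to 0.04 for Nr1h3 and -0.02 to 0.09 for Rxra, and in the HIRA arm from -0.20 to 0.19 for Nr1i3 and -0.21 to 0.05 for Nr1h4. The difference between times ranged from -0.10 to 0.15 for Nr1h4, -0.01 to 0.09 for Nr1h3 and -0.04 to 0.07 for Rxrb.

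FPKM (pseudocounts 1 and 0.1) gave 0.04 for Nr1i2 and -0.01 for Abcb11 at 3 weeks, 0.02 for Ahr, -0.12 and -0.15 for Cyp2b10 and -0.27 and -0.36 for Cyp7a1 at 6 months, 0.00 for the averaged Nr1h4, 0.00 for Nr1h3 over time in the controls and -0.08 for Nr1i3 in the HIRA arm. Limma-voom gave -0.00 for Nr1h4, -0.18 for Cyp2b10 and -0.33 for Cyp7a1 at 6 months and -0.07 for Nr1i3 over time in the HIRA arm, where the libraries of the contrast alone gave -0.01. DESeq2, relative log expression scaling and filterByExpr each gave 0.01 for Nr1h3 over time in the controls. The replicate block gave -0.03 for Cyp7a1 at 6 months. The block without HIRA replicate 5, chosen after seeing the data, gave -0.13 for Nr1i3, -0.16 for Nr1h4, -0.01 for Rxra and 0.04 for Ahr at 6 months, 0.06 for Cyp7a1 and -0.13 for Cyp8b1 averaged, -0.27 for Nr1i3 over time in the HIRA arm and -0.11 for Nr1h4 between times.

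The averaged call of Gsta1 was lost with limma-voom and without any 1 of HIRA replicates 1, 3 and 4 or control replicates 1 to 4 at 3 weeks, or HIRA replicate 3 or control replicates 1 and 4 at 6 months (adjusted p up to 0.0767). That of Fdx1 was lost without control replicate 4 at 6 months (0.051), its 6-month call also with the libraries of that time alone (0.141), and that of Dnajc7 with no filter (0.0593) and with FPKM (0.158 and 0.159). The 6-month call of Sdc1 was lost with FPKM, with the libraries of that time alone (0.162), with the block without HIRA replicate 5 (0.0633) and without HIRA replicate 1 or control replicates 1, 4 or 5 (0.0507 to 0.0828). With the spread of Nr0b2 and Nr1i3 the intervals given were wide, and changes of any size inside them were not excluded. The causes of these shifts were not tested.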
